A study of Mus musculus with 6 samples.

Results

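The p53 target genes described here are 10 genes chosen by symbol as well-known targets of that factor: *Cdkn1a*, *Ccng1*, *Mdm2*, *Bax*, *Bbc3*, *Trp53inp1*, *Phlda3*, *Gadd45a*, *Pmaip1* and *Eda2r*. All 10 were found among the 34745 genes of the deposited table. Total RNA of the cortex of mice at P8 (postnatal day 8) was sequenced, in 3 Pen-2 cKO and 3 Control libraries. The Pen-2 cKO genotype is Pen-2 F/F; hGFAP-Cre and the Control genotype Pen-2 F/F, so both groups carried floxed alleles of *Psenen*, which encodes the γ-secretase subunit PEN-2. Since the Control genotype lists no Cre, what the transgene does by itself and what the loss of PEN-2 does cannot be told apart. As background, the human GFAP promoter of this transgene is active in radial glia as well as in astrocytes, so neurons and oligodendrocytes that descend from radial glia can also be recombined. The titles number the samples without saying that each came from its own animal, so a p-value reflects only how much these samples vary, which may be technical.

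The transcription factor p53 is held at a low level by the ubiquitin ligase MDM2 and accumulates when DNA damage, replication stress or failed ribosome assembly blocks that degradation. It then binds paired decamer sites near its target genes and raises their transcription. The targets include inhibitors of the cell cycle, activators of mitochondrial cell death, and genes such as *Mdm2* itself that feed back on p53. In the developing cortex p53 is known above all for the removal of damaged neural progenitors. RNA levels of the targets are a common readout of p53, but each target also answers to other transcription factors.

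The p53 decamer was searched, without mismatch, in RefSeq promoter windows of GRCm38.p6 that run from 250 bases before to 50 bases after each start site. Windows of 8 members were matched by symbol. The decamer motif reads the same on both strands, and 2745 of all 32851 windows (8.36%) held a match. Matches lay in windows of 5 members: *Cdkn1a*, *Ccng1*, *Mdm2*, *Bax* and *Gadd45a*. A pair of adjoining decamers with at most 1 of the 20 bases off the motif was found in 29 of 32851 windows (0.09%), and 2 of these belonged to *Cdkn1a* and *Ccng1*. The search with 1 base off was chosen after that for single decamers had been seen. A search for 2 decamers without mismatch, at most 13 bases apart, matched 24 of 32851 windows (0.07%). Among the members only *Cdkn1a* held such a match, and *Ccng1* did not. The upstream 250 bases of *Cdkn1a* and *Ccng1* are shown because they hold the adjoining pairs and because both genes rose in Pen-2 cKO cortex. Capitals mark the decamers and the adjoining pairs.
Cdkn1a, chr17:29090729-29090978, plus strand: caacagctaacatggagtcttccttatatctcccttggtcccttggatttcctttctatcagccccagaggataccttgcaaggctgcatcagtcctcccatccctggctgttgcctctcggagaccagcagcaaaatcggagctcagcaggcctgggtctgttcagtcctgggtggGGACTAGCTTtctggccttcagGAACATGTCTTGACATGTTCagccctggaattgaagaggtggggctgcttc
Ccng1, chr11:40755287-40755536, minus strand: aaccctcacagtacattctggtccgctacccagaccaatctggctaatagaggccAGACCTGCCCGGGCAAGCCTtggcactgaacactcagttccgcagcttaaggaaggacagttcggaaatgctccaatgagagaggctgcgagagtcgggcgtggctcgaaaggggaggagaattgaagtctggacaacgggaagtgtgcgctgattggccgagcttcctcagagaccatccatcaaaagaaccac
The remaining decamers are shown with 10 bases on each side.
Mdm2, chr10:117710925-117710954, minus strand: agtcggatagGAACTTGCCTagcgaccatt
Bax, chr7:45467080-45467109, minus strand: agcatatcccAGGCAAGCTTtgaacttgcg
Gadd45a, chr6:67037428-67037457, minus strand: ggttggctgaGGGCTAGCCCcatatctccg
The adjoining pair in *Cdkn1a* began 51 bases before the upstream start site and 2841 bases before the downstream one. The pair in *Ccng1* began 195 bases before its start site. No match was found in the windows of *Bbc3*, *Phlda3* and *Eda2r*, which says only that these letters are not in those windows. Binding of p53 was not measured.

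Levels are in FPKM as deposited by the authors, a unit that divides fragments by library size and by the length of the gene, so levels of different genes can be compared per unit of length. The steps between low values implied 25123100 to 26809300 fragments in Pen-2 cKO libraries and 20251900 to 24872600 in Control libraries, so the Pen-2 cKO libraries were the deeper ones. *Psenen* was 3.56, 3.90 and 4.03 FPKM in Pen-2 cKO libraries and 6.35, 6.86 and 7.32 FPKM in Control libraries (log2 fold change -0.82, SE 0.09, limma, adjusted p = 0.00441). The test covered the 14147 genes that reached 0.5 FPKM in 3 or more libraries, and an adjusted p under 0.05 was called. Of these, 783 (5.53%) were called, 519 (3.67%) higher and 264 (1.87%) lower in Pen-2 cKO cortex. The share of calls that were higher, 66.3%, became 49.0% under median-ratio scaling, 51.5% under upper-quartile scaling and 78.8% where library sums were made equal.

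All 10 p53 target genes had a higher mean in Pen-2 cKO than in Control cortex, and in 6 of them the groups did not overlap. *Cdkn1a* and *Ccng1* rose, at 1.49 and 1.30 times the Control mean. *Eda2r*, the lowest of the 10 in level, had the largest ratio of means, 6.46, but lay under the filter on low values. The other 7 members were tested and did not pass. The median log2 fold change of the 9 tested members was 0.36, beside 0.07 over all tested genes. Among all tested genes 63.6% had a log2 fold change above 0, and in 21.5% all Pen-2 cKO libraries lay above all Control libraries, while in 8.17% they all lay below. *Gadd45a* passed the filter through its 3 Pen-2 cKO libraries alone, so its place among the tested genes depended on the group in which it was higher. No member was called lower by limma, and none was lower at an unadjusted p under 0.05, while 4 were higher at that level. Over all tested genes 16.5% were higher and 6.33% lower at an unadjusted p under 0.05.

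**Figure D1:**
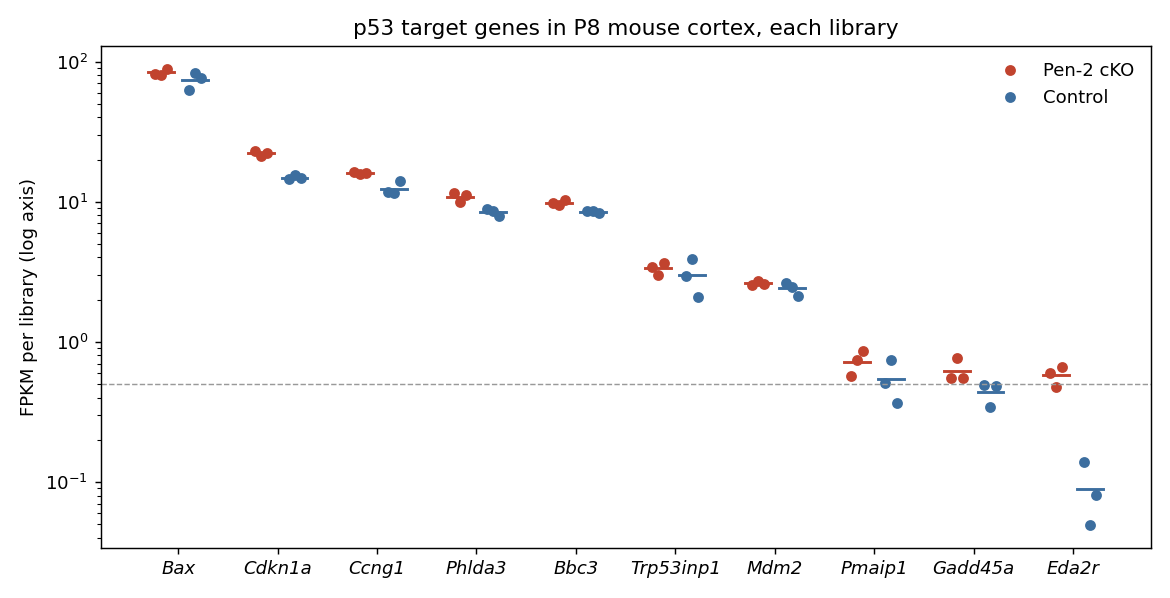
FPKM of each p53 target gene in every library on a log axis, ordered by mean level, with Pen-2 cKO points left of Control points, bars at the group means and a dashed line at 0.5 FPKM. The groups are apart in *Cdkn1a*, *Ccng1*, *Phlda3*, *Bbc3*, *Gadd45a* and *Eda2r* and overlap in the other 4 genes.

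The members differed widely in level. *Bax* was the highest, with a mean of 78.9 FPKM over all 6 libraries, followed by *Cdkn1a* at 18.5, *Ccng1* at 14.2, *Phlda3* at 9.68, *Bbc3* at 9.18, *Trp53inp1* at 3.16, *Mdm2* at 2.52, *Pmaip1* at 0.631, *Gadd45a* at 0.532 and *Eda2r* at 0.334 FPKM. The neighbours *Phlda3* and *Bbc3* overlapped in both groups, and so did *Pmaip1* and *Gadd45a*. *Trp53inp1* and *Mdm2* overlapped in Control libraries but not in Pen-2 cKO libraries. In bulk tissue, fewer cells of a type and less RNA per cell cannot be told apart, and this holds for every level given here.

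*Cdkn1a* encodes p21, which inhibits cyclin-dependent kinases and halts the cell cycle (ENSMUSG00000023067, mm10 chromosome 17, 29090979 to 29100722). It was 23.0, 21.1 and 22.3 FPKM in Pen-2 cKO libraries and 14.4, 15.4 and 14.8 FPKM in Control libraries. The lowest Pen-2 cKO library lay well above the highest Control library, and the spread within each group was small. The means were 22.1 ± 0.926 FPKM in Pen-2 cKO and 14.9 ± 0.493 FPKM in Control cortex (SD, n = 3 each), which made the log2 fold change 0.57 with an SE of 0.06 (adjusted p = 0.00312 by limma). The 95% interval ran from 0.43 to 0.71. *Cdkn1a* ranked 93 of 14147 by p, and 93.9% of tested genes had a lower log2 fold change. It was called in all 17 other settings of the test, leaving out each library included, with log2 fold changes between 0.50 and 0.62. The gene *AC167363.2* lies within *Cdkn1a* on the opposite strand, and without knowledge of the strand setting their fragments cannot be told apart.

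*Gadd45a* encodes a stress sensor that binds cell cycle and repair proteins (chromosome 6, 67035096 to 67037457). It was 0.556, 0.767 and 0.548 FPKM in Pen-2 cKO libraries and 0.490, 0.345 and 0.485 FPKM in Control libraries. The groups did not overlap, but 2 Pen-2 cKO libraries were close to 2 Control libraries. Its log2 fold change was 0.42 (SE 0.22, limma, adjusted p = 0.318), with a 95% interval from -0.11 to 0.95. The range of *E230016M11Rik*, on the opposite strand, overlaps that of *Gadd45a*, so without knowledge of the strand setting their fragments cannot be told apart. *E230016M11Rik* ran from 0.418 to 0.452 FPKM in Pen-2 cKO libraries and from 0.429 to 0.675 FPKM in Control libraries.

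Of the genes that act back on p53, *Ccng1* passed narrowly. *Ccng1* encodes cyclin G1, which recruits a phosphatase that activates MDM2 (ENSMUSG00000020326, chromosome 11, 40748552 to 40755311). It was 16.4, 15.8 and 16.1 FPKM in Pen-2 cKO libraries and 11.6, 11.5 and 14.0 FPKM in Control libraries. The Pen-2 cKO libraries were close together, and Control replicate 3 stood nearer to them than the other Control libraries did. The means were 16.1 ± 0.292 FPKM in Pen-2 cKO and 12.4 ± 1.41 FPKM in Control cortex (SD, n = 3 each), which made the log2 fold change 0.38 with an SE of 0.09 (adjusted p = 0.0498 by limma). The call ended in 8 of 11 other settings and in 5 of the 6 fits with 1 library left out. The adjusted p was 0.155, 0.135 and 0.104 without Pen-2 cKO replicates 1, 2 and 3, 0.134 and 0.162 without Control replicates 1 and 2, and 0.0122 without Control replicate 3. Its log2 fold change stayed between 0.32 and 0.47 throughout.

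*Mdm2*, the ubiquitin ligase that degrades p53 and is itself induced by it, did not pass (chromosome 10, 117688888 to 117710758). It was 2.54, 2.74 and 2.61 FPKM in Pen-2 cKO libraries and 2.64, 2.47 and 2.12 FPKM in Control libraries. The groups overlapped, with Control replicate 1 inside the Pen-2 cKO range and Control replicates 2 and 3 below it. The log2 fold change was 0.12 (SE 0.12, limma, adjusted p = 0.592), and its 95% interval from -0.15 to 0.40 includes the lower part of the interval of *Ccng1*. *Trp53inp1*, whose product promotes p53 phosphorylation and autophagy, was 3.44, 2.99 and 3.62 FPKM in Pen-2 cKO libraries and 2.95, 3.90 and 2.08 FPKM in Control libraries. The Control libraries were spread more widely than the Pen-2 cKO libraries, which lay inside their range. The log2 fold change was 0.21 (SE 0.21, limma, adjusted p = 0.628) and turned to -0.021 without Control replicate 3.

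*Phlda3*, whose product competes with AKT for membrane lipids and so lowers survival signalling, lay just on the other side of the threshold (ENSMUSG00000041801, chromosome 1, 135766119 to 135769136). It was 11.5, 10.02 and 11.2 FPKM in Pen-2 cKO libraries and 8.86, 8.62 and 7.94 FPKM in Control libraries. All Pen-2 cKO libraries were above all Control libraries. The log2 fold change was 0.36 (SE 0.08, limma, adjusted p = 0.0509), with a 95% interval from 0.17 to 0.55. It passed with a filter of 1 FPKM (adjusted p = 0.0482) and with equal sums (adjusted p = 0.0346), while the adjusted p ran from 0.0817 to 0.169 without Pen-2 cKO libraries and from 0.0812 to 0.140 without Control libraries, 1 left out at a time. Whether *Phlda3* and *Ccng1* differ in response cannot be read from their places around the threshold, since their estimates and errors were close.

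**Figure D2:**
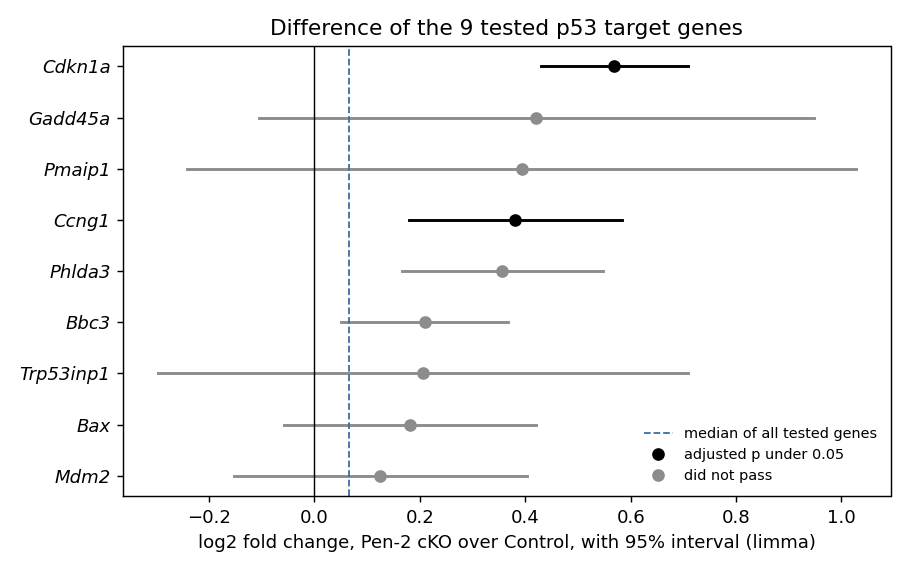
Log2 fold change of the 9 tested members, Pen-2 cKO over Control, on the log2(FPKM + 0.1) scale, with 95% intervals from limma, called genes in black and the dashed line at the median of all tested genes, 0.07. Every estimate lies above 0, and the intervals of *Cdkn1a*, *Ccng1*, *Phlda3* and *Bbc3* lie above 0 as well.

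None of the members that act on mitochondrial cell death passed, beside 5.53% of all tested genes. *Bax* encodes the pore-forming protein of the outer mitochondrial membrane (chromosome 7, 45461695 to 45466898). It was 81.8, 80.2 and 88.9 FPKM in Pen-2 cKO libraries and 62.9, 83.1 and 76.4 FPKM in Control libraries. Control replicate 2 lay among the Pen-2 cKO libraries and Control replicate 1 was the lowest. The log2 fold change was 0.18 (SE 0.10, limma, adjusted p = 0.345), with a 95% interval from -0.06 to 0.42. The range of the same-strand gene *Gm45808* overlaps *Bax*, and the fragments of the shared stretch cannot be told apart.

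*Bbc3* encodes PUMA, a BH3-only protein that binds the anti-apoptotic BCL2 proteins (chromosome 7, 16309616 to 16318205). It was 9.72, 9.47 and 10.4 FPKM in Pen-2 cKO libraries and 8.62, 8.57 and 8.32 FPKM in Control libraries. The groups did not overlap, and the difference was small beside that of *Cdkn1a*. The log2 fold change was 0.21 (SE 0.07, limma, adjusted p = 0.124), with a 95% interval from 0.05 to 0.37. *Pmaip1* encodes NOXA, a BH3-only protein that neutralises MCL1. It was 0.571, 0.738 and 0.860 FPKM in Pen-2 cKO libraries and 0.507, 0.746 and 0.365 FPKM in Control libraries. The groups overlapped, and the log2 fold change of 0.39 had a 95% interval from -0.24 to 1.03 (limma, adjusted p = 0.442).

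*Eda2r* encodes XEDAR, a receptor of the tumour necrosis factor receptor family that binds ectodysplasin A2 (ENSMUSG00000034457, chromosome X, 97333840 to 97377216). It was 0.598, 0.477 and 0.662 FPKM in Pen-2 cKO libraries and 0.139, 0.0495 and 0.0805 FPKM in Control libraries. Each Pen-2 cKO library was more than 3 times the highest Control library. The means were 0.579 ± 0.0938 FPKM in Pen-2 cKO and 0.0896 ± 0.0454 FPKM in Control cortex (SD, n = 3 each). With 2 libraries at 0.5 FPKM it was not tested in the fit above, and the exact two-sided permutation test gave p = 0.1, the smallest that 3 against 3 libraries allow. Without the filter, limma over 23331 genes put the log2 fold change at 1.86 with an SE of 0.26 (adjusted p = 0.0186), where 1.38% of genes were called higher. The fold change depends on the pseudocount at this level: it was 0.53 with a pseudocount of 1 and 2.65 with 0.01.

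The fragments behind *Eda2r* were few. With the lengths of its shortest and longest annotated transcripts, its value equalled between 0.8 and 4.8 fragments in Control replicate 2, between 2.3 and 14.3 in Control replicate 1, and between 9.7 and 59.1 in Pen-2 cKO replicate 2, the lowest of its group. In the fits without the filter and with 1 library left out, a check added after the data were seen, the adjusted p was 0.0808, 0.0557 and 0.0485 without Pen-2 cKO replicates 1, 2 and 3. It was 0.0369, 0.0737 and 0.0471 without Control replicates 1, 2 and 3, with log2 fold changes from 1.70 to 2.04. With median-ratio, upper-quartile and equal-sum scaling and no filter it was 0.0210, 0.0224 and 0.0149.

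**Figure D3:**
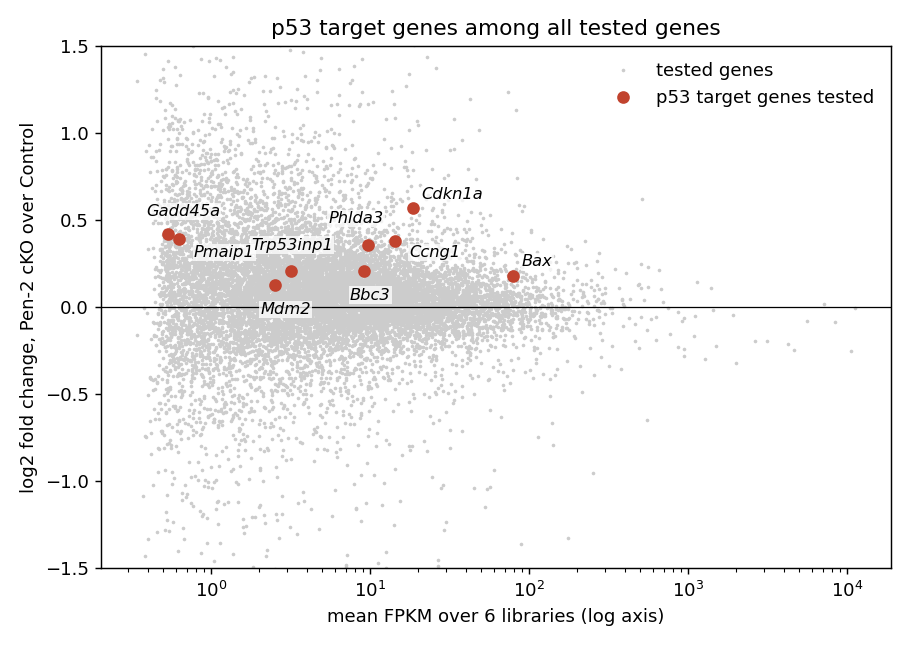
Log2 fold change, Pen-2 cKO over Control, against mean FPKM over 6 libraries on a log axis for all tested genes (grey) and the 9 tested p53 target genes (red). The axis is drawn to 1.5 in each direction and leaves out 135 tested genes, none of them a member. *Cdkn1a*, at 0.57, stands highest of the 9, and all 9 lie above 0.

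No tested gene that sets the level or activity of p53 passed, beside 5.53% of all tested genes. Of 10 on the list, 8 were tested and none was called in either direction, with 1 higher and none lower at an unadjusted p under 0.05 (limma), beside 16.5% and 6.33% of all tested genes. *Trp53*, which encodes p53, was 3.66, 3.86 and 4.27 FPKM in Pen-2 cKO libraries and 3.41, 2.96 and 2.26 FPKM in Control libraries. Its groups did not overlap, and the log2 fold change was 0.45 (SE 0.16, limma, adjusted p = 0.145). *Mdm4*, the MDM2 relative that blocks p53 activity, averaged 3.64 ± 0.103 FPKM in Pen-2 cKO and 3.38 ± 0.881 FPKM in Control cortex (SD, n = 3 each). *Ppm1d*, a phosphatase that switches the response off, averaged 6.69 ± 0.255 FPKM in Pen-2 cKO and 5.94 ± 0.643 FPKM in Control cortex. *Usp7*, a deubiquitinase of MDM2 and p53, and *Trp53bp1*, a damage mediator, had log2 differences of -0.03 and 0.05. *Trp53*, *Mdm4* and *Ppm1d* were named after their values had been seen. As background, p53 is regulated mainly at the protein, which was not measured.

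Among 27 further p53 targets, 23 were tested, 4 rose and 1 fell, beside 3.67% and 1.87% of all tested genes. The list's median log2 fold change was 0.10, against 0.07 over all tested genes. *Btg2*, an antiproliferative gene that is also an immediate early gene, was 5.15, 4.78 and 4.80 FPKM in Pen-2 cKO libraries and 3.15, 2.95 and 3.21 FPKM in Control libraries (log2 fold change 0.64, SE 0.09, limma, adjusted p = 0.00956). *Ddit4*, which encodes the mTORC1 inhibitor REDD1, averaged 58.0 ± 5.01 FPKM in Pen-2 cKO and 39.9 ± 2.69 FPKM in Control cortex (log2 0.54, limma, adjusted p = 0.0126). *Sesn2*, a leucine sensor of the same pathway, averaged 6.45 ± 0.907 FPKM in Pen-2 cKO and 4.08 ± 0.182 FPKM in Control cortex (log2 0.64, limma, adjusted p = 0.0247). *Ddit4* and *Sesn2* are also known targets of the stress factor ATF4. *Gtse1*, a gene of G2 phase whose product restrains p53, averaged 1.55 ± 0.186 FPKM in Pen-2 cKO and 0.823 ± 0.0746 FPKM in Control cortex (log2 0.83, limma, adjusted p = 0.0263). *Plk2*, a kinase that is induced in active neurons as well, fell to 58.4 ± 2.79 FPKM in Pen-2 cKO cortex, against 73.2 ± 5.08 FPKM in Control cortex (log2 -0.32, limma, adjusted p = 0.0375). None of *Zmat3*, *Tigar* and *Triap1*, at log2 differences of 0.33, 0.21 and 0.21, passed, nor did *Sesn1* and *Ei24*, at -0.14 and 0.01. With 1 library left out, 1 to 3 genes of the list rose and 0 or 1 fell: 1 rose without Pen-2 cKO replicate 1, Control replicate 1 or Control replicate 2, and 2 rose without Pen-2 cKO replicate 2 or Control replicate 3. *Plk2* fell without Control replicate 1 and lost its call without each other library, and *Gtse1* lost its call without any 1 of the 6 libraries. *Btg2* lost its call without Pen-2 cKO replicate 1 or Control replicate 2, and *Ddit4* without Pen-2 cKO replicate 1 or Control replicate 1. *Sesn2* kept its call only without Pen-2 cKO replicate 1 or 3.

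**Figure D4:**
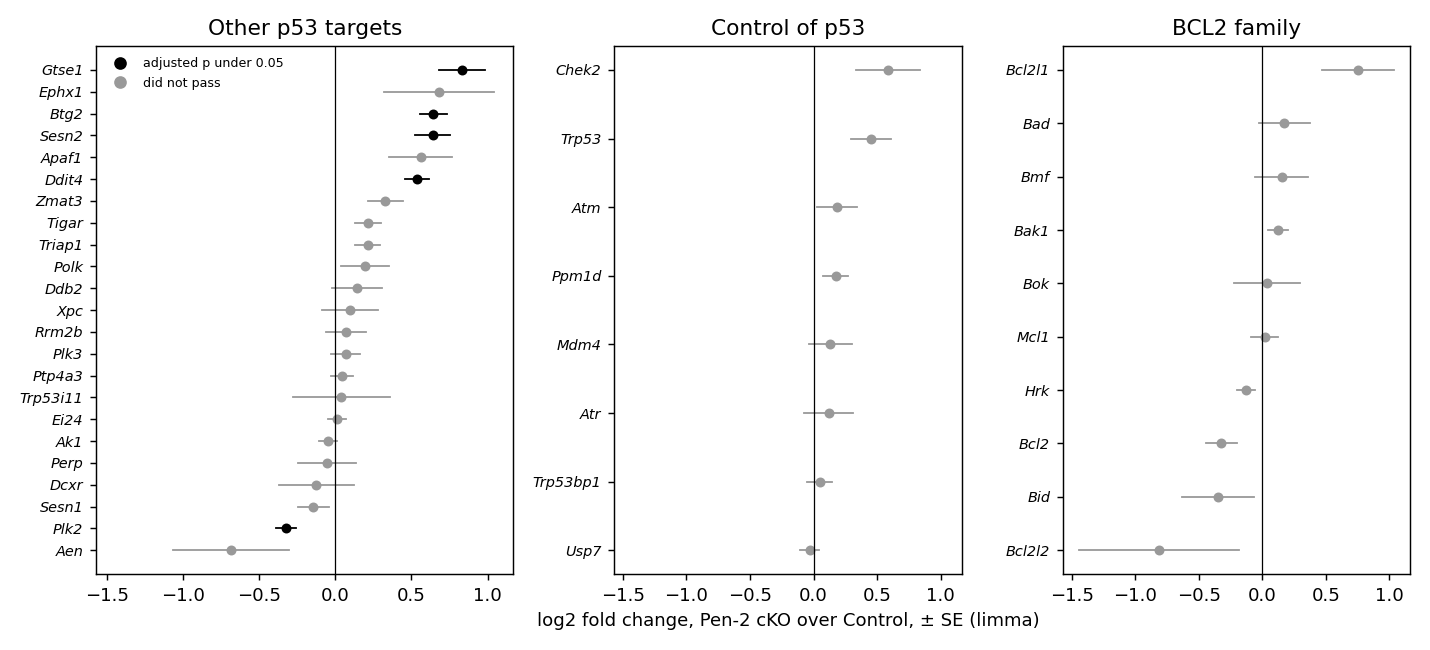
Log2 fold change, Pen-2 cKO over Control, with its SE from limma, for the tested genes of the further p53 targets (left), the genes that control p53 (middle) and the BCL2 family (right), called genes in black. Of the further targets 4 called genes lie above 0 and *Plk2* below, and no gene of the other lists was called.

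No tested gene of the BCL2 family outside the members passed, beside 5.53% of all tested genes. Of 12, 10 were tested, with a median log2 fold change of 0.03, and 1 was higher and 1 lower at an unadjusted p under 0.05 (limma), beside 16.5% and 6.33% over all tested genes. The anti-apoptotic *Mcl1*, the partner of NOXA, averaged 22.0 ± 1.86 FPKM in Pen-2 cKO and 21.7 ± 2.80 FPKM in Control cortex (SD, n = 3 each). *Bok*, a BAX relative, averaged 12.4 ± 3.22 FPKM in Pen-2 cKO and 12.04 ± 3.54 FPKM in Control cortex. *Bcl2l1*, which encodes BCL-XL, was 6.76, 3.40 and 7.40 FPKM in Pen-2 cKO libraries and 3.31, 2.82 and 3.65 FPKM in Control libraries. Pen-2 cKO replicate 2 lay among the Control libraries, and without it *Bcl2l1* was called (log2 1.10, limma, adjusted p = 0.0182). The anti-apoptotic *Bcl2* went the other way, at 1.58, 1.66 and 1.41 FPKM in Pen-2 cKO libraries and 2.04, 1.85 and 2.00 FPKM in Control libraries. Its Pen-2 cKO libraries all lay below its Control libraries, as in 8.17% of all tested genes (log2 -0.32, limma, adjusted p = 0.181).

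None of the tested nearest relatives of the members was called, beside 5.53% of all tested genes. Of 10, 8 were tested, and 2 were higher and none lower at an unadjusted p under 0.05 (limma), against 16.5% and 6.33% of all tested genes. *Trp53inp2*, the relative of *Trp53inp1* in autophagy, averaged 34.1 ± 1.72 FPKM in Pen-2 cKO and 37.8 ± 3.04 FPKM in Control cortex (SD, n = 3 each). *Phlda1* averaged 6.77 ± 0.202 FPKM in Pen-2 cKO and 5.76 ± 0.751 FPKM in Control cortex. *Cdkn1c*, which encodes the p21 relative p57, was 6.46, 5.69 and 8.12 FPKM in Pen-2 cKO libraries and 4.88, 4.09 and 3.67 FPKM in Control libraries. Its groups did not overlap (log2 0.66, limma, adjusted p = 0.0556), and it was called with equal sums (adjusted p = 0.0391). *Cdkn1b*, which encodes p27, and *Ccng2*, the relative of *Ccng1*, had log2 differences of -0.13 and -0.03.

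Genes of proliferating cells were also higher in Pen-2 cKO cortex. Of the 15 genes on the cell cycle list, 13 rose, beside 3.67% of all tested genes, and none was called lower. In all 15 every Pen-2 cKO library lay above every Control library, as in 21.5% of all tested genes. Their median log2 fold change was 0.95, beside 0.07 over all tested genes. With 1 library left out, 8 rose without Pen-2 cKO replicate 1 or 2 and 7 without Control replicate 1 or 2. *Mki67*, a marker of cycling cells, averaged 6.55 ± 0.446 FPKM in Pen-2 cKO and 2.73 ± 0.177 FPKM in Control cortex (log2 1.23, limma, adjusted p = 0.00107). *Ube2c*, *Top2a* and *Kif11*, which act in mitosis, rose by 1.46, 1.20 and 1.05 on the log2 scale. *Pcna*, a replication clamp that is also a p53 target, averaged 17.5 ± 0.999 FPKM in Pen-2 cKO and 15.1 ± 1.49 FPKM in Control cortex and did not pass (log2 0.21, limma, adjusted p = 0.197). By root mean square difference of centred log2 values over the 6 libraries, the 3 tested genes nearest to *Cdkn1a* were *Ndc80*, a kinetochore gene, *Frmd8* and *Cd93*, at 0.0358, 0.0385 and 0.0427. This measure mainly finds genes with a group difference of like size. *Mki67*, *Top2a*, *Kif11* and *Ube2c* lay at 0.339, 0.333, 0.257 and 0.475. The mural cell marker *Abcc9* and the neuronal *Gad1* were nearer, at 0.0736 and 0.138. A link of *Cdkn1a* to cycling cells was not tested.

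Markers of cell types moved between the groups too, and their part in the differences of the p53 target genes was not tested. Of 8 oligodendrocyte precursor markers, 5 rose, among them *Nkx2-2* and *Gpr17*, and 1 fell, with summed levels of 265 to 332 FPKM in Pen-2 cKO and 124 to 151 FPKM in Control libraries. The marker that fell was *Ptprz1* (log2 -0.82, limma, adjusted p = 0.00393). *Pdgfra* and *Cspg4* did not pass (log2 0.27 and 0.53, limma, adjusted p = 0.102 and 0.0640). Of 8 oligodendrocyte markers, 7 rose, among them *Enpp6* and *Myrf*, with sums of 94.3 to 150.1 FPKM in Pen-2 cKO and 24.0 to 38.0 FPKM in Control libraries. Of 10 astrocyte markers, 6 fell, among them *Aldoc* and *Fgfr3*, with sums of 74.3 to 158 FPKM in Pen-2 cKO and 231 to 299 FPKM in Control libraries. Neuronal sums were 1590 to 1715 FPKM in Pen-2 cKO and 1914 to 1936 FPKM in Control libraries, and *Tubb3* fell while *Gad1* rose. *Tubb3* alone made up 1105 to 1191 FPKM of these sums in Pen-2 cKO and 1358 to 1439 FPKM in Control libraries, and the other 8 neuronal markers summed to 464 to 557 FPKM in Pen-2 cKO and 496 to 577 FPKM in Control libraries, which overlap. Microglial sums were 76.1 to 129 FPKM in Pen-2 cKO and 51.8 to 68.0 FPKM in Control libraries, with *Fcrls* called of 8. *C1qa* and *C1qb*, the highest of these in level, averaged 29.6 and 36.6 FPKM in Pen-2 cKO cortex. In Control cortex they averaged 15.1 and 21.3 FPKM, and they were not called. *P2ry12* alone of the list had a log2 fold change under 0, at -0.34, and was not called. Endothelial sums were 51.1 to 56.5 FPKM in Pen-2 cKO and 40.5 to 48.9 FPKM in Control libraries, with *Cdh5* called of 6. These sums were mostly *Cldn5*, at means of 39.8 and 32.9 FPKM, which was not called. Of 5 mural markers 2, *Tagln* and *Abcc9*, rose, with sums of 48.1 to 50.2 FPKM in Pen-2 cKO and 33.7 to 42.1 FPKM in Control libraries. The mural sums were mostly *Rgs5*, at means of 35.9 FPKM in Pen-2 cKO and 28.7 FPKM in Control cortex, which was not called. Of 5 meningeal markers 3 rose, *Lum* and *Dcn* among them, with sums of 43.2 to 82.4 FPKM in Pen-2 cKO and 20.4 to 23.9 FPKM in Control libraries. Choroid plexus sums, nearly all *Ttr*, ran from 186 to 889 FPKM in Pen-2 cKO and from 35.6 to 182 FPKM in Control libraries, and blood cell sums from 110 to 171 FPKM in Pen-2 cKO and from 115 to 219 FPKM in Control libraries. Of 6 choroid plexus markers 3 were tested, all with log2 fold changes above 0. None of these or of the 5 blood markers was called, and *Aqp1*, a choroid plexus marker, came closest (log2 1.51, limma, adjusted p = 0.0502). No marker of these lists was at 0 in all libraries. Pen-2 cKO replicate 3 had the highest astrocyte, oligodendrocyte, microglial, endothelial, meningeal, choroid plexus and blood cell sums of its group. Without this library *Cdkn1a* had a log2 fold change of 0.56 (limma, adjusted p = 0.00868). That fit is not a test of cell types, since Pen-2 cKO replicates 1 and 2 differed from Control libraries in the same markers. Their astrocyte sums were 74.3 and 81.0 FPKM and their oligodendrocyte sums 94.3 and 123 FPKM.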

How the data were processed

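The authors deposited FPKM values per gene and library, per the file headers, in a series-wide table and in 6 per-library tables with identical values. Per the submitters' processing notes, mm10 was the build. For the aligner, counter, annotation and strand setting, the choice is not given in the sources used here. P-values and q-values that the authors deposited come without a stated test and were used only in the closing section. Depth was read from the steps between low FPKM values of genes with 1 annotated transcript (GENCODE M21), where 83.7% of values under 100 fragments came within 0.01 of a whole fragment. Counts of genes with several transcripts were not recovered, so no count test was run, and all fold changes are on the log2(FPKM + 0.1) scale, which understates changes of low genes.

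Tests used limma 3.58.1 in R 4.3.3, with a mean-variance trend and robust variances, group as the only term, and Benjamini-Hochberg adjustment over all tested genes. On simulated data for this comparison, with 200 of 14147 genes changed, the test recovered 50.7% of 1.5-fold, 83.6% of 2-fold and 93.9% of 4-fold changes, with 15 unchanged genes among 167 called. In the data 783 genes were called, and recovery depends on how many genes change, so these shares may not carry over. Apart from *Eda2r*, the members differed by less than 1.5-fold. Lists were described by counts and medians, with no set test, and 1 of the lists is not reported here. The members, lists and settings were chosen with earlier results of these data known.

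Genes were named by a rule: all members and *Psenen*, up to 4 called genes by p from each pathway list and up to 2 from each cell type list (with none called, the highest 2 or 1 by FPKM), and the 3 genes nearest to *Cdkn1a*. Other named genes of these lists, such as *Plk2*, *Zmat3*, *Bcl2l1*, *Cdkn1c* and *Pcna*, were chosen after their values were seen. Symbols of 27 genes turned into dates were restored by gene ID. Promoter sequences are RefSeq's on GRCm38.p6, the assembly named mm10. Alternatives varied the pseudocount, filter, scaling, variance options, a replicate block and each library left out. Software versions were Python 3.11.15, pandas 2.3.3, NumPy 2.4.6 and, for plots, matplotlib 3.10.9.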

Additional observations from a re-analysis of the deposited data

How the results depend on the processing

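Of 170 repeats of the members' differences (10 members, 17 settings), 149 gave a test, and 132 of these kept their direction and their side of the threshold. In the other 21 the gene lay under the filter and kept its direction (*Eda2r* 16, *Gadd45a* 4, *Pmaip1* 1). Passing was lost in 13, all of *Ccng1*, and gained in 3, by *Phlda3* (filter of 1 FPKM, equal sums) and *Eda2r* (no filter). The log2 fold change of *Trp53inp1* ran from -0.021 to 0.42 with 1 library left out, reversed without Control replicate 3; the cause was not tested. *Cdkn1a* was called in all 17. The number of members called was 1 (*Cdkn1a*) with a pseudocount of 0.01, a filter on the mean, median-ratio or upper-quartile scaling, no mean-variance trend, no robust variance estimation or the replicate block, and 1 or 2 with 1 library left out. Over all genes, 783 calls became 499 with no filter (323 higher), 456 with the replicate block (290 higher, 166 lower) and 210 to 813 with 1 library left out (134 to 576 higher, 76 to 307 lower): 315, 302 and 621 without Pen-2 cKO replicates 1, 2 and 3, and 300, 210 and 813 without Control replicates 1, 2 and 3; calls higher were 324 with median-ratio, 326 with upper-quartile and 909 with equal-sum scaling. Of the further p53 targets, 2 rose and 0 fell with the replicate block (*Gtse1* and *Sesn2* lost their calls), 0 fell with no filter or no trend, and 1 to 3 rose and 0 to 1 fell with 1 library left out. With 1 library left out 7 to 11 cell cycle genes rose, and 0 to 1 BCL2 family genes (*Bcl2l1*, without Pen-2 cKO replicate 2). *Cdkn1c* made 1 call higher with equal sums. Whether replicate numbers pair the samples cannot be decided here, since deviations from a mean of 3 libraries are tied to each other. Those deviations correlated by 0.06, 0.01 and 0.10 between same-numbered libraries across genes. Pen-2 cKO replicate 2 correlated more with Control replicate 1 (0.06). With 3 libraries per group, changes of 1.5-fold were often missed in the simulated data, where 200 genes changed, and smaller changes were not simulated. Levels under 0.5 FPKM rest on few fragments.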

Other observations

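The authors' deposited table gives its own p-values and q-values, with no test stated. For *Cdkn1a* the authors' deposited table lists group values of 23.9 FPKM in Pen-2 cKO and 14.3 FPKM in Control cortex, with a q-value of 0.00107 and no up or down call. For *Eda2r* the authors' deposited table lists 0.703 FPKM in Pen-2 cKO and 0.0936 FPKM in Control cortex, with a q-value of 1.47e-08 and an up call, the only call among the 10 members. For *Ccng1* and *Phlda3* the q-values in the authors' deposited table were 0.361 and 0.213. *Psenen*, the deleted gene, stands in the authors' deposited table at 4.70 FPKM in Pen-2 cKO and 6.37 FPKM in Control cortex. Its q-value there was 0.592, with no up or down call.

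Other death receptor and stress genes of the further p53 targets lay under the filter and were not tested, and these were chosen after their values had been seen. *Tnfrsf10b*, a receptor for the death ligand TRAIL, was 0.376, 0.254 and 0.470 FPKM in Pen-2 cKO libraries and 0.233, 0.140 and 0.101 FPKM in Control libraries. *Gdf15*, a secreted stress factor, was 0.0680, 0.105 and 0.115 FPKM in Pen-2 cKO libraries and 0.0474, 0.0169 and 0.0275 FPKM in Control libraries. In both genes all Pen-2 cKO libraries lay above all Control libraries, as they did in 21.5% of all tested genes. That share covers only genes that passed the filter, which *Tnfrsf10b* and *Gdf15* did not, so it is not the share at their level. Levels this low rest on few fragments. *Fas*, which encodes another death receptor, averaged 0.312 ± 0.0710 FPKM in Pen-2 cKO and 0.331 ± 0.0931 FPKM in Control cortex (SD, n = 3 each).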
